A study of Fukomys damarensis with 47 samples.

Results

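LAPTM5, CORO1A and ARL11 are 3 genes best known from blood cells, and they were measured here by RNA-Seq in cultures of adherent bone marrow cells from female Damaraland mole-rats (Fukomys damarensis), a rodent that lives in colonies with a breeding queen. They were taken by symbol from the study's gene table, which pairs LAPTM5 with ENSFDAG00000004335, CORO1A with ENSFDAG00000004763 and ARL11 with ENSFDAG00000000040. They are 3 of the 33562 genes in the count table. All 3 were also among the 11047 genes tested, which reached at least 2 CPM in at least 25% of the libraries. CPM is a gene's count divided by the library's total count and scaled to a common depth, so it was compared between libraries. Transcript lengths were not used, so levels of different genes are not ranked against each other. The genes were chosen by values measured in these data. The contrast of queens and nonbreeders in long bones is treated as the measure that chose them, is given as a description without a p-value, and supports nothing further.

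LAPTM5 is a transmembrane protein of lysosomes that is found mainly in hematopoietic cells, where it works with NEDD4-type ubiquitin ligases and lowers the surface level of antigen receptors by sending them to lysosomes. CORO1A is the coronin of leukocytes, an actin-binding protein that acts with the Arp2/3 complex in migration and phagocytosis and is needed for the survival of naive T cells. ARL11 is a small GTPase of the ARF-like family that is expressed in macrophages, where it takes part in their activation. Marrow holds the progenitors of these cells beside stromal cells, the precursors of bone-forming osteoblasts. Osteoclasts, the cells that resorb bone, come from the same myeloid lineage as macrophages.

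The 47 libraries came from 16 females of 8 natal colonies, which go by the first letters of the animals' names (such as DV, LA, MA, NO and WA), with 2 females from each colony. The 5 queens had each been paired with an unrelated male away from home, the 7 helpers had stayed in the natal colony, and the 4 solitaires had been housed alone. Helpers and solitaires are the 11 nonbreeders. Queens were 1004 to 1132 days old, helpers 1003 to 1232 days and solitaires 1105 to 1231 days. Cells came from pooled long bones (26 libraries from 16 females) or from pooled lumbar vertebrae (LV, 21 libraries from 14 females). They were cultured and then exposed for 24 hr to 10 nM estradiol or to vehicle. Vehicle libraries of long bones came from 5 queens, 7 helpers and 4 solitaires, and estradiol libraries from 4 queens, 5 helpers and 1 solitaire. Vehicle libraries of LV came from 3 queens, 6 helpers and 4 solitaires, and estradiol libraries from 3 queens, 4 helpers and 1 solitaire. Red blood cells had been lysed and cells that did not attach had been washed off, so the cultures were meant to be enriched for mesenchymal stromal cells and not for blood cells. LV had been digested with collagenase and long bones had not, so bone type and dissociation cannot be told apart. Libraries held 5329563 to 16327339 counted reads with a median of 8784879, and counting intervals given here cover counting error only.

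The long bone libraries of the queen MAF006 stood apart. Their summed level over 14 markers of osteoblasts and stromal cells was 443 CPM with vehicle and 361 CPM with estradiol, against 1739 to 5053 CPM in the 17 long bone libraries of nonbreeders. Their summed level over 11 pan-leukocyte markers, the members not among them, was 2732 and 1848 CPM, against 227 to 843 CPM in nonbreeders. The fitted differences of the members and the marker lists in long bones, and the correlations with the lists, are also given without her, alone or together with NOF009, which was chosen after seeing the data.

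All 3 genes varied widely between libraries. LAPTM5 ran from 12.4 CPM (106 counts) to 2229 CPM (11878 counts), a span of 179-fold, with a median of 142 CPM. CORO1A ran from 8.61 to 533 CPM, a span of 61.9-fold, with a median of 33.6 CPM. ARL11 ran from 0.235 CPM (2 counts) to 106 CPM, a span of 452-fold, with a median of 9.36 CPM. LAPTM5 and CORO1A were at or above 2 CPM in 47 of 47 libraries, and ARL11 in 36 of 47. In bulk RNA, a lower level may come from fewer cells of a type or from less of the transcript per cell, and these cannot be told apart here.

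**Figure D1:**
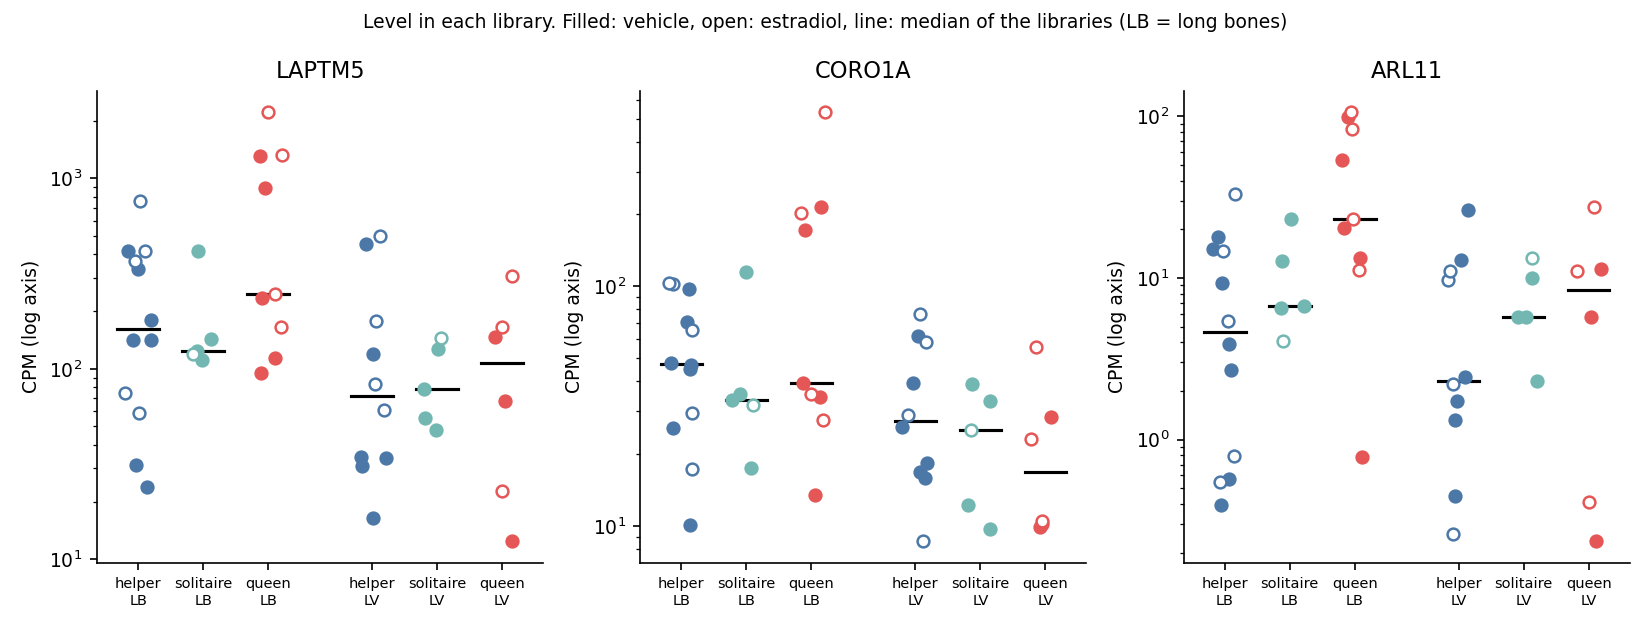
Level of LAPTM5, CORO1A and ARL11 in each of the 47 libraries (CPM, log axis) by social status and bone. Filled points are vehicle libraries, open points are estradiol libraries and lines are group medians; the 4 highest long bone libraries of each gene in queens belong to MAF006 and NOF009, and ARL11 falls below 1 CPM in all 7 libraries of colony DV.

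Ordered by the median over vehicle and estradiol libraries together, LAPTM5 was highest in long bones of queens at 246 CPM (95.2 to 2229 CPM). Long bones of helpers followed at 161 CPM (24.1 to 764 CPM) and those of solitaires at 125 CPM (111 to 417 CPM). LV of queens came next at 107 CPM (12.4 to 305 CPM), then LV of solitaires at 78.3 CPM (48.0 to 145 CPM) and LV of helpers at 71.9 CPM (16.5 to 497 CPM). Every neighbouring pair in this order overlapped, so the order shows the long bone groups above the LV groups by median and no separation between neighbours. The medians of all 3 genes pool treatments that the groups hold in unlike shares. With vehicle alone, LAPTM5 in LV had a median of 67.4 CPM in queens and 66.6 CPM in solitaires.

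CORO1A had another order, with long bones of helpers first at 47.4 CPM (10.0 to 103 CPM). Long bones of queens had a median of 39.4 CPM but the widest range, 13.5 to 533 CPM, and long bones of solitaires a median of 33.6 CPM (17.4 to 114 CPM). LV of helpers (27.4 CPM, 8.61 to 76.5 CPM), solitaires (25.02 CPM, 9.70 to 39.0 CPM) and queens (16.7 CPM, 9.85 to 55.8 CPM) followed. The median of queens was thus below that of helpers in both bones, and all neighbouring groups overlapped.

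Over both treatments together, ARL11 was highest in queens by median in both bones, at 23.1 CPM in long bones (0.775 to 106 CPM) and 8.38 CPM in LV (0.235 to 27.3 CPM). Solitaires followed at 6.72 CPM in long bones (4.09 to 23.2 CPM) and 5.72 CPM in LV (2.29 to 13.3 CPM). Helpers were lowest, at 4.65 CPM in long bones (0.391 to 33.0 CPM) and 2.31 CPM in LV (0.261 to 26.1 CPM). Again every neighbouring pair of groups overlapped, and queens held both the highest library and the lowest. With vehicle alone, the medians in LV were 5.69 CPM in queens and 5.72 CPM in solitaires, so queens were highest only in long bones (20.4 CPM).

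Queens were compared with nonbreeders within natal colonies, because 5 colonies had given a queen and a nonbreeding female to the experiment. Counts of the vehicle and estradiol libraries of a female were added for each bone before the fit. In long bones, LAPTM5 was 1497 CPM in the queen MAF006 against 125 CPM in her colony mate MAF003, a solitaire. It was 1316 against 586 CPM in colony NO, 241 against 42.8 CPM in WA and 138 against 31.5 CPM in LA, where the mates were helpers. In colony DV the order was turned, with 95.2 CPM in the queen and 253 CPM in the helper. The added libraries do not hold the same treatments, since the queen of DV and the mates of MA and LA had no estradiol library of long bones. With vehicle alone the levels were 884 against 125 CPM in MA (a ratio of 7.09), 113 against 31.5 CPM in LA and 95.2 against 142 CPM in DV (0.670). The queen was therefore higher in 4 of 5 pairs, by a mean of 1.59 ± 1.89 on the log2 scale (SD, n = 5), or 1.81 ± 1.49 with vehicle alone. Without MA it was 1.09 ± 1.76 (n = 4).

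CORO1A was higher in the queen in 3 of 5 pairs. The levels were 360 against 33.6 CPM in MA, 187 against 74.4 CPM in NO and 30.9 against 14.0 CPM in WA. In LA and DV the queen was lower, at 23.7 against 25.6 CPM and 39.4 against 53.6 CPM. The mean difference, 1.07 ± 1.52 on the log2 scale (SD, n = 5), was smaller than its spread, and the pair from MA differed most. Without MA it was 0.48 ± 0.88 (n = 4).

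ARL11 was higher in the queen in 5 of 5 pairs. The levels were 77.5 against 6.72 CPM in MA, 90.5 against 23.9 CPM in NO and 12.3 against 2.69 CPM in LA. The widest gap was in WA, with 21.8 CPM in the queen and 0.554 CPM in the helper, and the narrowest in DV, with 0.775 and 0.556 CPM. The mean difference was 2.64 ± 1.73 on the log2 scale (SD, n = 5), and 2.43 ± 1.92 without MA. Because the comparison chose the genes, these counts of pairs describe it and do not test it.

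**Figure D2:**
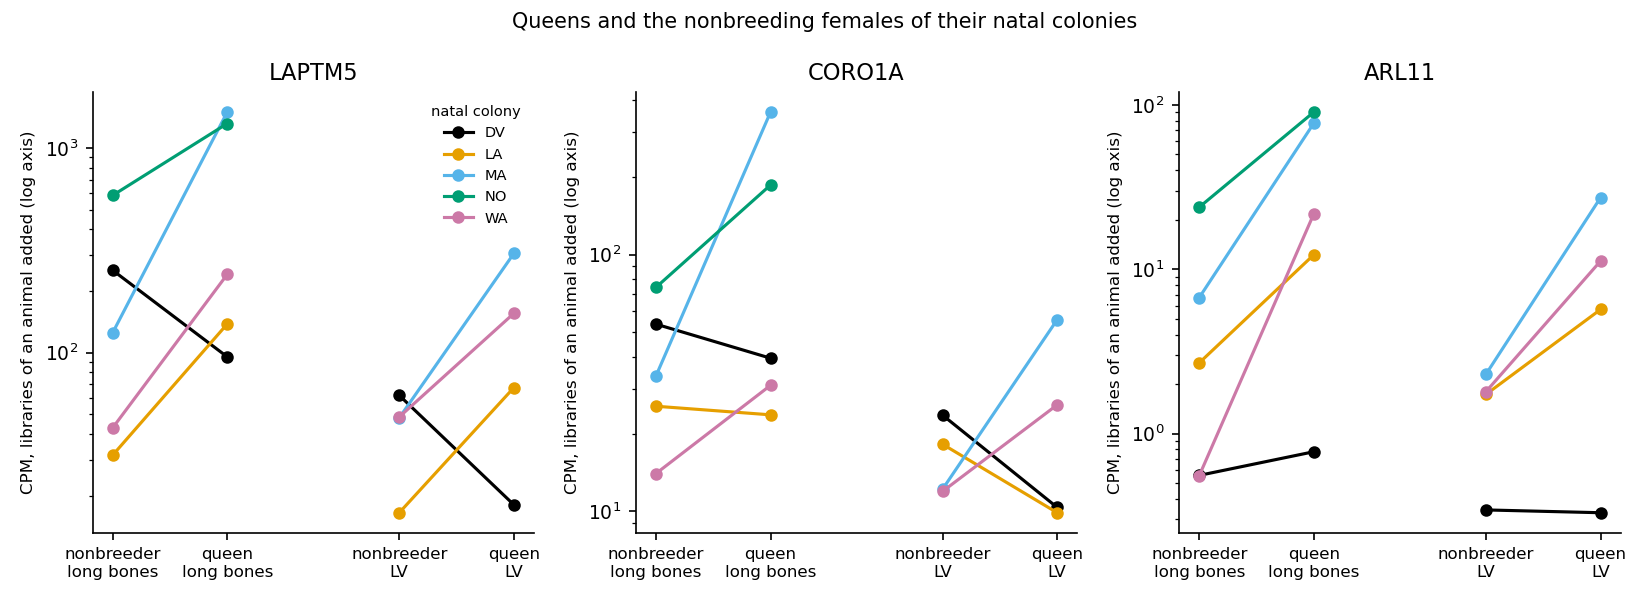
Level of LAPTM5, CORO1A and ARL11 (CPM, log axis) in each queen and the nonbreeding female of her natal colony, joined by a line per colony, in long bones (5 colonies) and LV (4 colonies). ARL11 is higher in the queen in all 5 long bone pairs, while LAPTM5 is lower in the queen in colony DV and CORO1A in DV and LA.

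Fitted over all 16 females with the colony as a block, the log2 fold change of queens over nonbreeders in long bones was 1.65 ± 0.54 (SE) for LAPTM5, 0.98 ± 0.48 for CORO1A and 2.71 ± 0.57 for ARL11. With this block the fold change rests on the 5 colonies with a queen, and the other colonies inform only the spread. Leaving out either mate of a pair therefore removes the same pair. The share of all genes called in this contrast by edgeR's quasi-likelihood test at an adjusted p under 0.1 was 0%, with 960 genes (8.69%) at an unadjusted p under 0.05 and 391 genes called by DESeq2. Without MAF006 and NOF009, the queens with the most LAPTM5, an alternative chosen after seeing the data, the values were 1.17 ± 0.66, 0.17 ± 0.39 and 2.81 ± 0.85. Leaving out MAF006 alone gave 1.18 for LAPTM5 and 0.48 for CORO1A, the lowest values over 16 such fits. Leaving out the queen of DV gave the highest values, 2.26 for LAPTM5, 1.35 for CORO1A and 3.05 for ARL11.

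The LV of the same females share animals with the long bones, so they are not an independent set. LAPTM5 in LV was 305 CPM in the queen of MA against 48.0 CPM in her colony mate, 155 against 48.4 CPM in WA and 67.4 against 16.5 CPM in LA. The queen of DV was again the lower of her pair, at 18.0 against 61.8 CPM. The mean difference was 1.15 ± 1.99 on the log2 scale (SD, n = 4), with the queen higher in 3 of 4 pairs. In MA, however, the only LV library of the queen had estradiol and that of her mate vehicle. Over the 3 pairs with vehicle in both, the mean difference of LAPTM5 was 0.89 ± 2.01 (SD), that of CORO1A -0.24 ± 0.94 and that of ARL11 1.35 ± 1.75. CORO1A in LV was higher in the queen in MA (55.8 against 12.2 CPM) and WA (25.9 against 11.9 CPM) and lower in LA (9.85 against 18.2 CPM) and DV (10.3 against 23.7 CPM). Its pairs were thus evenly split between the directions, with a mean difference of 0.31 ± 1.60. ARL11 in LV was 27.3 against 2.29 CPM in MA, 11.2 against 1.80 CPM in WA and 5.69 against 1.73 CPM in LA. In DV it was 0.330 against 0.343 CPM, values that rest on 2 to 4 counts in each library. The mean difference of ARL11 was 1.90 ± 1.46, with the queen higher in 3 of 4 pairs.

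In the fit over 14 females, 0 of the 3 genes passed an adjusted p under 0.1 (edgeR's quasi-likelihood test) between queens and nonbreeders in LV, as did 0% of all 11047 genes, while 378 genes (3.42%) had an unadjusted p under 0.05 and DESeq2 called 105. LAPTM5 had a log2 fold change of 1.29 ± 0.72 (SE, adjusted p = 0.999) and CORO1A 0.28 ± 0.53 (adjusted p = 0.999). ARL11 had 2.22 ± 0.65 (unadjusted p = 0.00782, adjusted p = 0.823), and DESeq2 put it at an adjusted p of 0.0400. Without a filter on low counts LAPTM5 and ARL11 were called by edgeR's quasi-likelihood test, at adjusted p = 3.57e-07 and 4.68e-07, with unchanged log2 fold changes of 1.29 and 2.22. Only the set of genes in the fit, all 25892 with a count, had changed. These p-values therefore depend on the filter and are not taken as evidence of a difference. The sign of CORO1A turned when MAF006 or MAF003 was left out (-0.32 and -0.31) and when WAF011 or WAF014 was left out (-0.07 and -0.08). The fold change rests on the 4 colonies with a queen and her mate in LV, so leaving out either mate removes the same pair.

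The difference between queens and nonbreeders in long bones was set against that in LV over the 14 females with both bones. It contains the contrast that chose the genes, so it is a description without a p-value. The difference of the log2 fold changes, long bones minus LV, was 0.73 ± 0.51 for LAPTM5, 0.99 ± 0.40 for CORO1A and 0.76 ± 0.45 for ARL11 (SE). Of all genes, 0% were called by edgeR's quasi-likelihood test at an adjusted p under 0.1, with 539 genes (4.88%) at an unadjusted p under 0.05 and 3 called by DESeq2. The value of CORO1A was 1.41 without the queen WAF014, in a fit that called 1092 genes, and 0.63 without MAF006.

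Helpers and solitaires are the nonbreeders with and without a queen in their colony. In long bones of the 4 solitaires, LAPTM5 with libraries added per female stayed within the span of the helpers, and the fitted log2 fold change of solitaires over helpers was -0.44 ± 0.57 (SE, adjusted p = 0.802). CORO1A had -1.04 ± 0.45 (unadjusted p = 0.0456, adjusted p = 0.559) and ARL11 0.13 ± 0.61 (adjusted p = 0.952). By edgeR's quasi-likelihood test 0 of the 3 genes passed, against 1 gene of all tested (0.00905%), with 967 genes (8.75%) at an unadjusted p under 0.05 and 139 called by DESeq2. In LV the values were 0.05 ± 0.87 for LAPTM5, -1.01 ± 0.52 for CORO1A and -0.07 ± 0.83 for ARL11 (adjusted p of 0.998 to 0.999, edgeR). None of the 3 genes passed there either, against 0% of all genes, with 308 genes (2.79%) at an unadjusted p under 0.05 and 6 called by DESeq2. The fitted value of CORO1A was below 0 in both bones in all fits that left out a female. It ran from -1.49 to -0.59 in long bones and from -1.37 to -0.52 in LV, with -0.59 and -0.52 reached without MAF003. With the colony as a block, only colonies with a solitaire and a helper compare these groups directly, and G1 had no helper library in LV. The solitaire MAF003 entered through her colony mate, the queen MAF006, whose long bones stood apart (CORO1A of 33.6 against 360 CPM). The common sign thus rests on few pairs, and these fits are not separate checks of it. The levels of CORO1A did not order the groups alike. Its median over females in LV was 26.2 CPM in solitaires and 24.7 CPM in helpers. The solitaire of colony G1 was above the helper in long bones (114 and 99.5 CPM). The signs of LAPTM5 and ARL11 in LV turned with the female left out. LAPTM5 ran from -0.93 without WEF001 to 0.76 without MAF003, and ARL11 from -1.29 without WEF001 to 0.64 without G4F020.

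Bone type was the comparison in which LAPTM5 and CORO1A passed the test. With vehicle, 13 females had both bones. LAPTM5 was higher in long bones in 11 of 13 females, with ratios of 0.699 to 7.65 and a median of 1.91. The widest ratios were those of the queen DVF007 (95.2 CPM in long bones and 12.4 CPM in LV), the helper WEF002 (180 and 30.8 CPM) and the solitaire G1F025 (417 and 78.3 CPM). A queen, a helper and a solitaire were thus among the females with the widest ratios. The exceptions were the helpers NOF007 (413 and 453 CPM) and WAF011 (24.1 and 34.4 CPM).

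CORO1A was also higher in long bones in 11 of 13 females, with ratios of 0.637 to 3.86 and a median of 1.41, and the same females NOF007 (47.1 and 62.1 CPM) and WAF011 (10.0 and 15.8 CPM) were the exceptions. ARL11 was higher in long bones in 9 of 13 females, with ratios of 0.429 to 4.06 and a median of 1.56. It ran from 23.2 against 5.71 CPM in G1F025 to 0.567 against 1.32 CPM in WAF011, these being the females with the widest and the narrowest ratio. The mean within-female differences were 1.11 ± 1.08 for LAPTM5, 0.71 ± 0.80 for CORO1A and 0.46 ± 0.88 for ARL11 on the log2 scale (SD, n = 13).

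**Figure D3:**
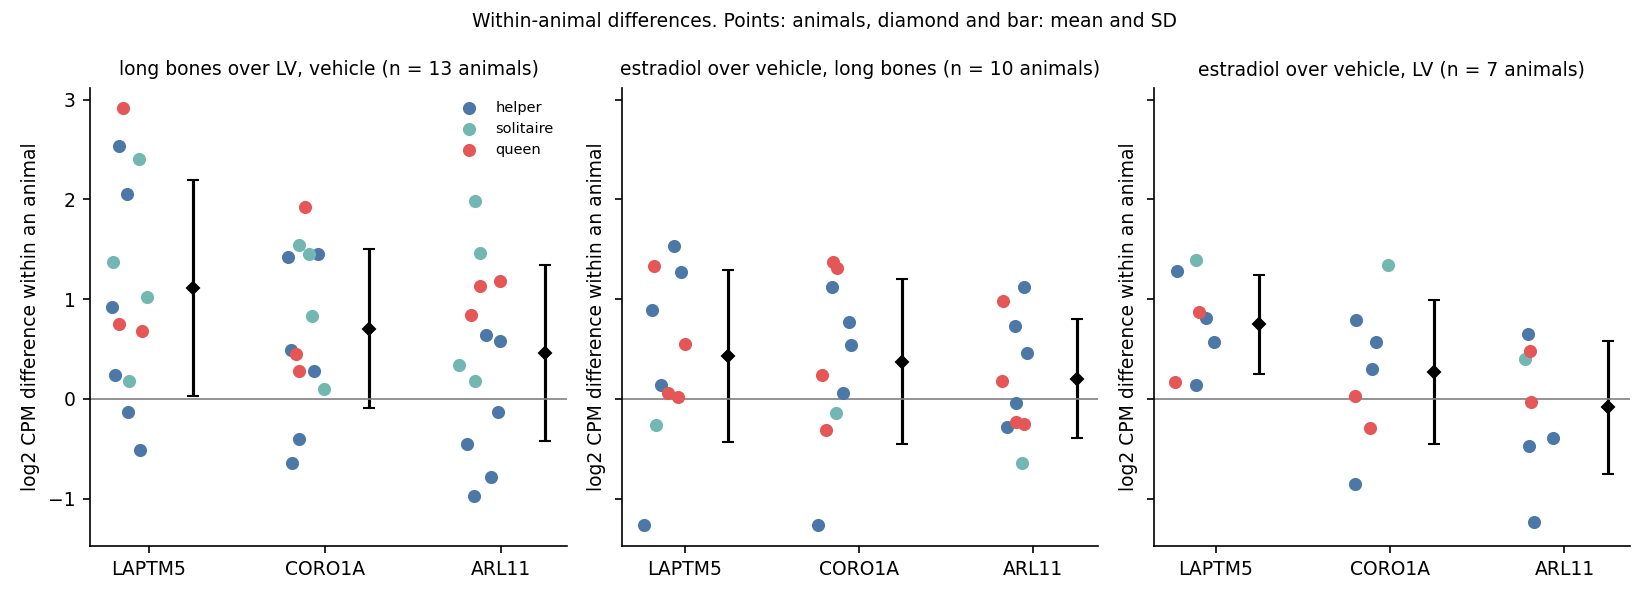
Difference in log2 CPM within each female for LAPTM5, CORO1A and ARL11, for long bones minus LV with vehicle (13 females), estradiol minus vehicle in long bones (10 females) and estradiol minus vehicle in LV (7 females). Points are females, diamonds and bars are the mean ± SD, and the line at 0 marks no difference; LAPTM5 lies above 0 in 11 of 13 females for bone and in 7 of 7 for estradiol in LV.

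With the female as a block, LAPTM5 was higher in long bones by a log2 fold change of 1.12 ± 0.28 (SE, adjusted p = 0.0247) and CORO1A by 0.74 ± 0.21 (adjusted p = 0.0515), by edgeR's quasi-likelihood test. ARL11, at 0.53 ± 0.25, did not pass (adjusted p = 0.308). Thus 2 of the 3 genes passed, both higher in long bones, where 6.83% of all tested genes passed (755 genes) and 4.05% were higher (447 genes). LAPTM5 passed in all 13 fits that left out a female, with values of 0.97 to 1.25. CORO1A passed in 9 of them and missed the threshold without DVF008 (0.68, adjusted p = 0.106), G1F025 (0.68, adjusted p = 0.116), MAF003 (0.68, adjusted p = 0.109) or WEF002 (0.66, adjusted p = 0.101). With the estradiol libraries added, ARL11 passed as well, at 0.66 (adjusted p = 0.0634). Without the block the differences were 0.85 for LAPTM5 (adjusted p = 0.552) and 0.77 for CORO1A (adjusted p = 0.390), and neither passed.

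Estradiol was compared with vehicle in cells of the same female and bone. In long bones, LAPTM5 was higher with estradiol in 8 of 10 females, with ratios of 0.417 to 2.90. The helper DVF008 went from 142 to 413 CPM and the queen MAF006 from 884 to 2229 CPM, while the helper WEF002 went from 180 to 75.1 CPM. CORO1A was higher in 7 of 10 females (ratios of 0.415 to 2.62), and ARL11 in 5 of 10 (0.627 to 2.19). The mean differences, 0.43 ± 0.86, 0.37 ± 0.83 and 0.20 ± 0.60 on the log2 scale (SD, n = 10), were all smaller than their spread. None of the 3 genes passed in the fit (log2 fold changes of 0.43 ± 0.25, 0.38 ± 0.24 and 0.19 ± 0.20, SE, each at adjusted p = 1.00, edgeR's quasi-likelihood test), nor did any other gene (0%). At an unadjusted p under 0.05 there were 129 genes (1.17%), and DESeq2 called 5. Without MAF006 and NOF009 the log2 fold changes were 0.37, 0.28 and 0.14.

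In LV, LAPTM5 was higher with estradiol in 7 of 7 females, with ratios of 1.10 to 2.64 and a median of 1.76. It went from 54.9 to 145 CPM in the solitaire WEF001, from 34.0 to 83.3 CPM in the helper DVF008 and from 12.4 to 22.9 CPM in the queen DVF007. The helper WAF011 went from 34.4 to 60.5 CPM and the helper G4F019 from 120 to 178 CPM. The smallest steps by ratio were those of the queen WAF014, from 147 to 166 CPM, and the helper NOF007, from 453 to 497 CPM, the 2 females with the most LAPTM5 in LV with vehicle. The fitted log2 fold change was 0.71 ± 0.17 (SE), with an unadjusted p of 0.00257 and an adjusted p of 1 over all genes (edgeR's quasi-likelihood test; DESeq2 gave an adjusted p of 0.299). It therefore failed the correction over 11047 genes, although the direction was the same in every female. CORO1A was higher with estradiol in 5 of 7 females (0.23 ± 0.24, adjusted p = 1) and ARL11 in 3 of 7 (-0.16 ± 0.28, adjusted p = 1). None of the 3 genes passed, against 0% of all genes, with 55 genes (0.498%) at an unadjusted p under 0.05 and 6 called by DESeq2.

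**Figure D4:**
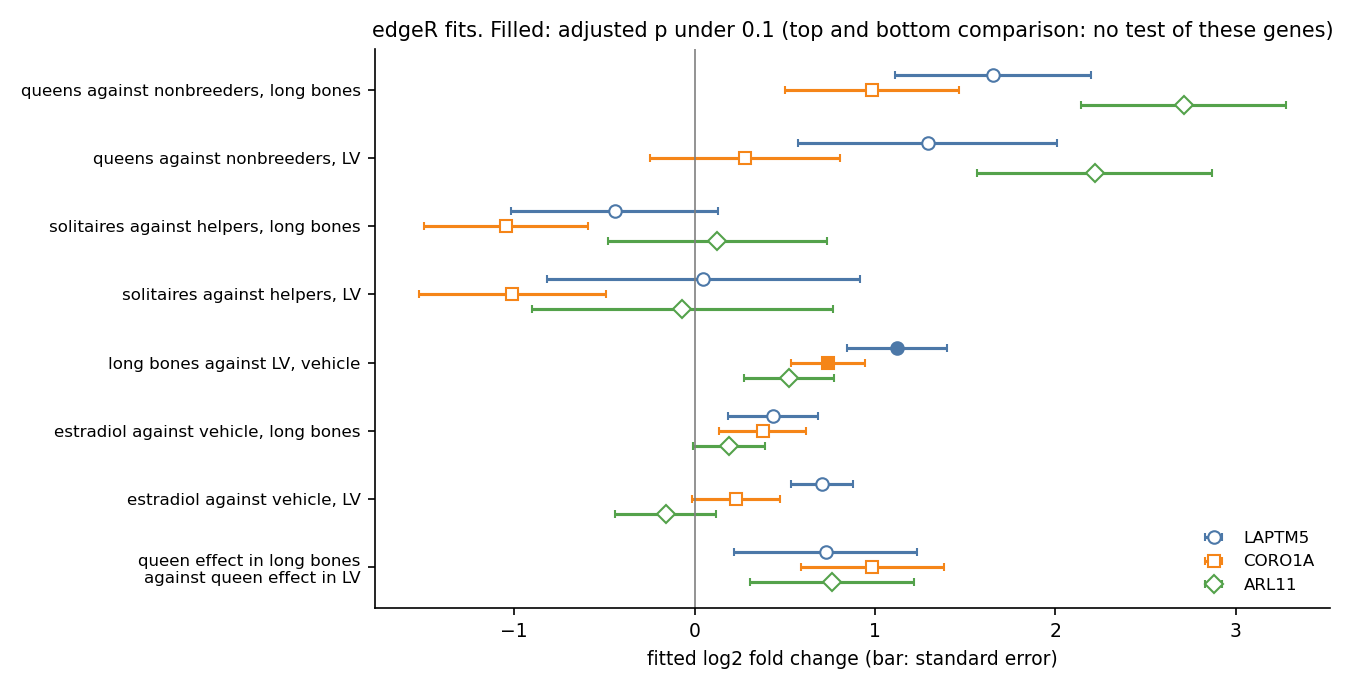
Fitted log2 fold change ± SE of LAPTM5, CORO1A and ARL11 in each of 8 comparisons. Filled points passed an adjusted p under 0.1 over all 11047 genes, which holds for LAPTM5 (1.12) and CORO1A (0.74) between long bones and LV; the comparison of queens in long bones chose the genes, so it and the difference that contains it carry no test.

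The 3 genes moved together over the libraries, though not to the same degree. Over 47 libraries, the log2 CPM of LAPTM5 and CORO1A had a Pearson's r of 0.88 (Spearman's rho 0.86), LAPTM5 and ARL11 0.80 (rho 0.80), and CORO1A and ARL11 0.66 (rho 0.60). Libraries of the same female, colony and sequencing depth are among these points, so the values are descriptions. CORO1A stood at 11.2 to 110 counts per 100 counts of LAPTM5 (median 26.1), and ARL11 at 0.193 to 18.3 per 100 (median 5.47).

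Colony DV stood apart for ARL11. In its 7 libraries, from the queen DVF007 and the helper DVF008, ARL11 was 0.235 to 0.797 CPM, on 2 to 8 counts a library. The lowest of these, 0.235 CPM, had a 95% Wilson interval of 0.0644 to 0.856 CPM, and the highest, 0.797 CPM, an interval of 0.386 to 1.64 CPM. In the other 40 libraries ARL11 was 0.543 to 106 CPM, and the only ones as low as DV were the long bone libraries of the helper WAF011 (0.543 and 0.567 CPM). LAPTM5 had 12.4 to 413 CPM in DV (median 83.3 CPM) against 16.5 to 2229 CPM elsewhere (median 144 CPM), and its lowest library of all was that of the queen DVF007 in LV. CORO1A had 10.2 to 65.8 CPM in DV (median 29.0 CPM) against 8.61 to 533 CPM elsewhere (median 33.9 CPM), so both overlapped the other colonies widely. Per 100 counts of LAPTM5, DV libraries thus held 0.193 to 1.89 counts of ARL11 (median 0.814) against 0.928 to 18.3 (median 6.15) elsewhere. Without DV the r of LAPTM5 and ARL11 was 0.90 and that of CORO1A and ARL11 0.76, over 40 libraries. The 13 macrophage markers summed to 27.8 to 73.1 CPM in the DV libraries. Over all libraries this sum ran from 24.8 CPM, in a long bone library of a nonbreeder of another colony, to 1536 CPM in a queen. Every macrophage marker but CYBC1 and PTAFR had a lower median in DV than elsewhere, such as CLEC4E (0.581 against 21.5 CPM) and C3AR1 (2.11 against 31.5 CPM). CYBC1, a chaperone of the phagocyte NADPH oxidase, had a median of 28.6 CPM in DV against 13.4 CPM elsewhere. PTAFR, the receptor of platelet-activating factor, had 3.22 against 2.28 CPM. Cathepsin S (CTSS), a lysosomal protease of macrophages and other antigen-presenting cells, was at most 7.02 CPM in DV against 3.53 to 814 CPM elsewhere. The part of cell makeup, colony and day of sacrifice in the low ARL11 of DV was not tested.

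**Figure D5:**
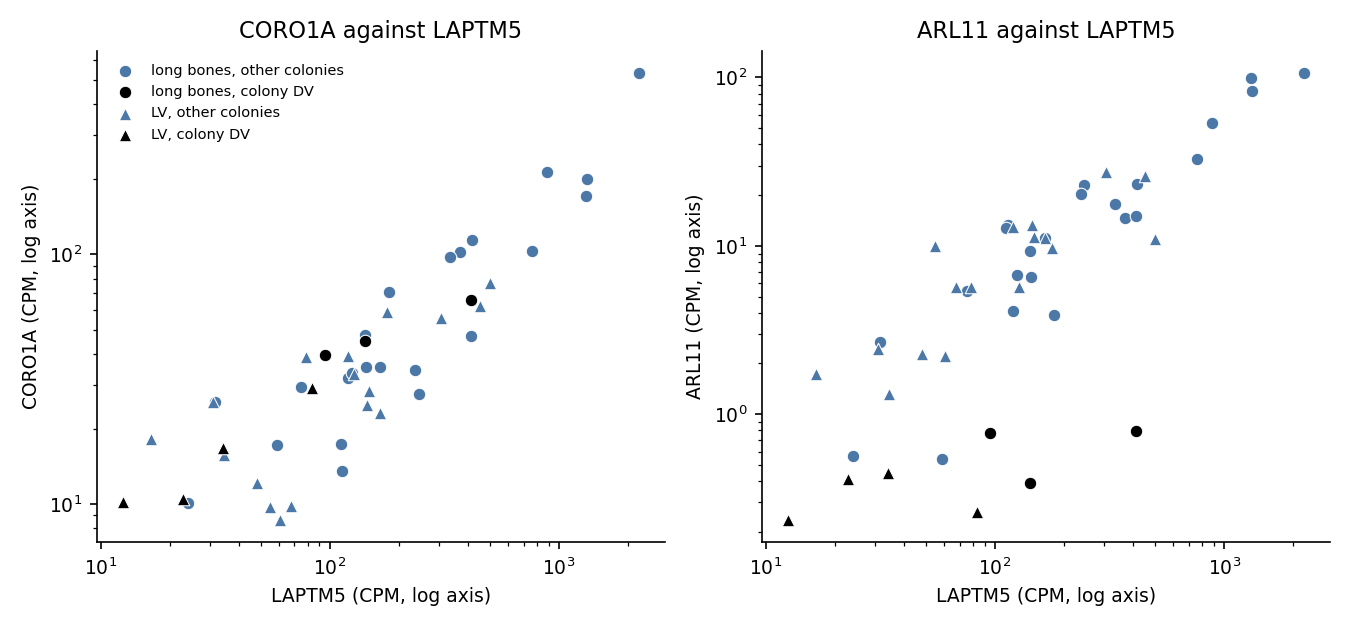
CORO1A against LAPTM5 and ARL11 against LAPTM5 in the 47 libraries (CPM, log axes), with the 7 libraries of colony DV in black and a point per library. Over the 47 libraries CORO1A and LAPTM5 had r = 0.88, while for ARL11 the DV libraries lie below the others of like LAPTM5 level.

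The genes most like each member were ranked by Pearson's r of log2 CPM over the 47 libraries, among genes with a symbol. For LAPTM5 they were FAM81A (0.88), CORO1A (0.88), LCP2 (0.86), NRROS (0.86) and IL10RA (0.86). LCP2 is an adaptor of T cell receptor signalling, NRROS holds latent TGF-beta at the surface of myeloid cells, and IL10RA is the ligand-binding chain of the interleukin-10 receptor. For CORO1A they were PYGL (0.89), a glycogen phosphorylase, LAPTM5 (0.88), FAM81A (0.86), TSTA3 (0.86), an enzyme of GDP-fucose synthesis, and RUFY1 (0.85), a protein of early endosomes. By rank, RUFY1 had a rho of only 0.70. For ARL11 they were CTSS (0.98), CLEC4E (0.96), the macrophage receptor also called Mincle, SHTN1 (0.93), TLR8 (0.93), an endosomal receptor for RNA, and GPR65 (0.89), a proton-sensing receptor of leukocytes. ARL11 thus had its closest match in a macrophage protease, and LAPTM5 ranked 13 and CORO1A 41 for it. Over all 11046 other genes, 1.01% had an r of at least 0.8 with LAPTM5, 1.09% with CORO1A and 1.39% with ARL11.

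The members went the same way as markers of blood cells over the libraries, while their inverse relation to stromal markers rested for LAPTM5 and CORO1A on the libraries of MAF006. The summed level of 13 tested macrophage and myeloid markers had an r of 0.87 with LAPTM5, 0.73 with CORO1A and 0.95 with ARL11 over the 47 libraries. Abundant genes weigh most in such sums, among them CTSS, the gene closest to ARL11, and IL7R of the lymphocyte list. Of the pan-leukocyte list these include FLI1, at up to 1265 CPM in a library, and STK10, at 57.3 CPM or more in every library. Single macrophage genes ran from -0.19 (CYBC1) to 0.98 (CTSS) with ARL11, with a median of 0.75 and 12 of 13 positive. All 13 were positive with LAPTM5 and CORO1A. For 11 pan-leukocyte markers the values of the sum were 0.82, 0.83 and 0.52, and the lower value of ARL11 became 0.71 without DV. Single pan-leukocyte genes ran from -0.17 to 0.89 with ARL11, 8 of 11 positive, and all 11 were positive with LAPTM5 and CORO1A. For 3 lymphocyte markers the values of the sum were 0.84, 0.74 and 0.87, while single genes ran from 0.13 (GRAP2) to 0.89 (IL7R) with ARL11. Markers of osteoblasts and stromal cells (14 genes, such as COL1A1 and COL5A2, chains of fibrillar collagens) had -0.33, -0.41 and -0.49. Over the 44 libraries without MAF006 the stromal values became 0.01, 0.00 and -0.34. The macrophage values were 0.84, 0.67 and 0.95 without her, the pan-leukocyte values 0.80, 0.77 and 0.40, and the lymphocyte values 0.82, 0.67 and 0.86. The osteoclast list had CTSK, the collagen-degrading protease of osteoclasts, as its only tested gene, with values of 0.01, 0.01 and 0.03 (0.14, 0.16 and 0.17 without her), and 5 endothelial markers had -0.11, -0.05 and -0.26 (0.01, 0.11 and -0.17 without her). CTSK was at 57.4 CPM or more in every library. Which cells it came from was not tested, so this gene alone does not show how the members relate to osteoclasts. Many defining markers had no symbol in the gene table as it was used here, so 11 of 24 listed pan-leukocyte, 13 of 27 macrophage, 3 of 18 lymphocyte and 1 of 12 osteoclast genes were tested.

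The fitted values of these lists are given beside those of the members. Between queens and nonbreeders in long bones, the median log2 fold change of the macrophage list was 1.45 with 12 of 13 genes positive, and that of the pan-leukocyte list 0.51 with 9 of 11 positive. The osteoblast and stromal list had a median of -0.39 with 1 of 14 positive, and the median over all genes was 0.02. Without MAF006 and NOF009 the stromal median turned to 0.10 with 9 of 14 positive, the pan-leukocyte median was 0.12 with 7 of 11 positive, and the macrophage median 1.71 with 12 of 13 positive. In LV the macrophage list had a median of 1.69 and the pan-leukocyte list 0.02. The 4 macrophage markers named by their mean CPM were CTSS, with log2 fold changes of 2.93 in long bones and 2.40 in LV, CLEC4E with 2.93 and 2.61, the complement receptor C3AR1 with 2.25 and 2.26, and the chemokine CCL8 with 3.76 and 3.13. No gene of the lists was called in either bone by edgeR. ARL11 (2.71 and 2.22) was close to these 4 markers in both bones, whereas CORO1A (0.98 and 0.28) was below all 4. The whole macrophage list ran from -0.02 to 3.76 in long bones and from -0.57 to 3.13 in LV, so CORO1A lay within it. CTSS and CLEC4E were also the genes most like ARL11 over these libraries, so the likeness is a description and no support. The lymphocyte list had medians of 0.65 and 0.80, the endothelial list -0.57 and -0.12, and CTSK 0.42 and 0.09.

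Between long bones and LV, 4 of 11 pan-leukocyte genes passed and were higher in long bones, namely LCP2 (1.16), DAPP1 (1.13), FLI1 (0.91) and STK10 (0.44), and all 11 were positive with a median of 0.77. Over all genes, 4.05% were called higher and 56% were positive, with a median of 0.04. The macrophage list had a median of 0.21 with 1 gene higher, the receptor tyrosine kinase FLT3 (1.08). Of the lymphocyte genes GRAP2 (1.25) and SLAMF7 (1.22) passed, of the endothelial genes RHOJ (0.49), and of the osteoblast and stromal genes FGFR1 (-0.98) and PHEX (-0.62), the latter pair lower in long bones. The osteoblast and stromal list as a whole was not lower there, with a median of 0.16 and 9 of 14 genes positive. Over all genes, 2.79% were called lower. LAPTM5 (1.12) and CORO1A (0.74) were thus close to the pan-leukocyte genes in this comparison. The part of cell makeup in these differences was not tested.

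Of the LAPTM family and its sorting partners, 3 of 10 listed genes were tested, the ubiquitin ligases WWP1, NEDD4L and NEDD4. Their median log2 fold changes were 0.18 for queens in long bones, 0.30 for queens in LV and -0.21 between bones, and 0 of 3 passed in any of these. Of the coronins, Arp2/3 subunits and genes of actin turnover, 4 of 21 were tested, and 2 of them were higher in long bones than in LV, where 4.05% of all genes were. These were COTL1 (1.05, adjusted p = 0.0076), a coactosin-like F-actin-binding protein, and TPM3 (0.31), a tropomyosin, while ACTR3, the Arp3 subunit, and SSH1, a cofilin phosphatase, were not called. The list had a median of 0.18 for queens in long bones and 0.05 in LV, with 0 of 4 called in each. Of the ARF-like GTPases and their regulators, 8 of 26 were tested, among them ARFGAP3, GBF1 and ACAP2, regulators of ARF GTPases. Their medians were -0.10 for queens in long bones, 0.00 in LV and 0.07 between bones, and 0 of 8 passed.

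The members were last set against cell type proportions that had been estimated from these same libraries for 27 cell types. Of these, 20 were placed here into 7 groups, with thymocytes among the T cells, and the others were left out of all relations. Because the estimates rest on the same counts, they are no independent check of the genes. The log2 CPM of each gene was related to each group's proportion over females, 16 in long bones and 14 in LV, which gave 42 relations, and 5 of them passed an adjusted p under 0.1 by Pearson's r and 8 by Spearman's rho (permutation test with 100000 resamples, two-sided, Benjamini-Hochberg over the 42). In long bones, granulocytes related to CORO1A with r = 0.70 (permutation p = 0.00300, adjusted p = 0.0487, rho = 0.55 with adjusted p = 0.139) and to LAPTM5 with r = 0.66 (permutation p = 0.00565, adjusted p = 0.0593, rho = 0.51 with adjusted p = 0.166). Without MAF003 and MAF006, the 2 females farthest from the median proportion, these were 0.80 and 0.78. The granulocyte estimate was above 0 in 10 of 16 females. Within colonies, as deviations from the colony mean, the r of CORO1A was 0.54 and that of LAPTM5 0.19, and neither passed. The test within colonies exchanged the mates of each pair. With 8 pairs (6 in LV) a relation could hardly pass over the 42, so a failure there decides nothing. By rank, myeloid progenitors related to CORO1A with rho = 0.71 (permutation test, adjusted p = 0.0379) and to LAPTM5 with rho = 0.64 (adjusted p = 0.0766), but their r was 0.55 and 0.48 and missed the threshold (permutation test, adjusted p = 0.111 and 0.157), and within colonies it was -0.20 and -0.18. ARL11 passed by rank with granulocytes, with rho = 0.59 (permutation test, adjusted p = 0.0986). CORO1A was also lower at higher osteoblast proportions, with r = -0.62 (permutation p = 0.0104, adjusted p = 0.0870, rho = -0.43 with adjusted p = 0.197). Without G1F025 and MAF006 this was -0.23, so it rests on those females, and within colonies it was -0.69. LAPTM5 (r = -0.55) and ARL11 (r = -0.56) were near CORO1A here but missed the threshold (permutation test, adjusted p = 0.111 for each). Without the same females they were -0.26 and -0.38.

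In LV, B cells related to ARL11 with r = 0.76 (permutation p = 0.00174, adjusted p = 0.0487, rho = 0.81 with adjusted p = 0.0313) and to LAPTM5 with r = 0.73 (permutation p = 0.00348, adjusted p = 0.0487, rho = 0.78 with adjusted p = 0.0313). Without G4F020 and WAF011 these were 0.85 and 0.79, and within colonies 0.65 and 0.61, where the 6 pairs could hardly give a pass and neither did. The B cell estimate was above 0 in 11 of 14 females, and over the 13 females with a vehicle library r was 0.54 and 0.45. In long bones the same estimate gave 0.24 for ARL11 and 0.08 for LAPTM5. By rank, CORO1A with B cells and ARL11 with granulocytes also passed in LV, each with rho = 0.67 (permutation test, adjusted p = 0.0766). For macrophages, ARL11 had r = 0.54 in long bones (permutation p = 0.0292, adjusted p = 0.111) and 0.54 in LV (permutation p = 0.0445, adjusted p = 0.144), with 0.61 and 0.66 within colonies, so neither passed by r. By rank the long bones passed, with rho = 0.59 (permutation test, adjusted p = 0.0986), and LV did not, with rho = 0.55 (adjusted p = 0.166). LAPTM5 and CORO1A had 0.18 and -0.04 with the macrophage estimate in long bones. The estimated T cell proportion had an r between -0.29 and 0.14 with every member in both bones. Within colonies in long bones it was 0.70 for CORO1A, 0.48 for LAPTM5 and 0.36 for ARL11. The dendritic estimate in long bones had an r of 0.49, 0.48 and 0.44 in the same order, which did not pass (permutation test, adjusted p of 0.152 to 0.211). Within colonies there it was 0.86, 0.79 and 0.52. In LV the within-colony values of both groups were negative, from -0.54 to -0.05.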

How the data were processed

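RNA was sequenced from adherent marrow cell cultures with a low-input kit. The authors trimmed reads with cutadapt (2.3), aligned them with STAR in a double pass to the DMR_v1.0 genome and counted uniquely mapped reads per Ensembl gene with HTSeq, and the deposited values are these raw counts. Whether strand was used in counting is not given in the sources used here. Depth ran from 5329563 to 16327339 counted reads a library. Libraries were compared in pairs to look for copies, and the 271 pairs differed by a chi-squared of at least 17.7 per degree of freedom, so all were kept.

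Symbols came from the study's gene table, of which 1594 rows with 1138 symbols were used. Genes with at least 2 CPM in at least 25% of libraries were tested. Counts of an animal's libraries of the same bone were added for the comparisons of social status and for the proportions, which are the authors' estimates and came from the study's supplementary tables. Tests used edgeR (4.0.16, R 4.3.3) with TMM factors and the quasi-likelihood test, with p-values adjusted by Benjamini-Hochberg over 11047 genes and a threshold of 10%. Natal colony was a block for social status, and the animal was a block for bone, estradiol and the difference between bones. Colony was read from the animal's name and also carries the day of sacrifice, and the days in culture, a covariate of the authors' model, were not used here. Colony mates deviated together from their group means, with correlations of 0.191 to 0.817 over 8 pairs in long bones and 0.293 to 0.608 over 6 pairs in LV, against medians of -0.115 and -0.139 for animals of different colonies. Log2 CPM used a prior count of 2. DESeq2 (1.42.0), other size factors, no filter, no block, vehicle libraries only, added estradiol libraries and leaving out each animal were the alternatives. The fits were tested on simulated counts with 200 changed genes and no differences between colonies. A log2 fold change of 1 was recovered for 46.5% of these genes for queens in long bones and 43.5% in LV. For solitaires it was 22.5% in long bones and 7% in LV. A log2 fold change of 2 was recovered for 83% to 98.5% over the comparisons. False calls made up at most 14.2% of calls. A gene that did not pass may therefore still differ.

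The members and the marker lists were chosen with earlier results of these data known. The genes named are the members, the 5 genes with a symbol whose log2 CPM had the highest Pearson's r with each member, and up to 4 tested genes of each list by mean CPM, while other list genes are named because they passed the test. A list gene that this rule would name is not reported here. Lists covered pan-leukocyte, macrophage, lymphocyte, osteoclast, osteoblast and stromal, and endothelial markers, and the gene families of the members. No genome or protein sequence was used here, so no sequence is shown.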

Additional observations from a re-analysis of the deposited data

How the results depend on the processing

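Of 123 alternative log2 fold changes, 112 were counted as unchanged, as were 284 of 312 fits that left out an animal. Unchanged meant the same direction and side of the threshold, also for the queen difference between bones, which is otherwise given without p-values. For queens in long bones, which had no test, it meant the same direction and a move below the SD of the colony pairs. The drop of CORO1A without MAF006 and NOF009 thus counted as unchanged. For social status, leaving out either mate of a colony removes the same pair, so these fits are not separate checks. In LV, queens over nonbreeders passed without the filter on low counts for LAPTM5 (1.29) and ARL11 (2.22) and by DESeq2 for ARL11 (2.11), and CORO1A turned to -0.27 with vehicle libraries only. Solitaires over helpers in LV turned for ARL11 to 0.36 with vehicle libraries only. With estradiol libraries added, ARL11 passed between bones (0.66). Without the replicate block (colony or animal), CORO1A turned to -0.25 for queens in LV, LAPTM5 to -0.42 and ARL11 to 0.25 for solitaires in LV, and LAPTM5 (0.85) and CORO1A (0.77) lost their calls between bones. The block changed no other call of a member. The cause of these changes was not tested.

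Leaving out an animal gave ranges of 1.18 to 2.26, 0.48 to 1.35 and 2.15 to 3.05 for LAPTM5, CORO1A and ARL11 in queens in long bones, and 0.75 to 2.08, -0.32 to 0.80 and 1.76 to 2.60 in LV. They were -0.69 to -0.01, -1.49 to -0.59 and -0.34 to 0.48 for solitaires in long bones, and -0.93 to 0.76, -1.37 to -0.52 and -1.29 to 0.64 in LV. They were 0.97 to 1.25, 0.63 to 0.84 and 0.39 to 0.66 between bones, 0.30 to 0.60, 0.26 to 0.54 and 0.08 to 0.26 for estradiol in long bones, 0.61 to 0.81, 0.07 to 0.41 and -0.32 to 0.078 for estradiol in LV, and 0.42 to 1.04, 0.63 to 1.41 and 0.56 to 0.95 for the queen difference between bones.

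Relations with proportions lost their call with vehicle libraries only for granulocytes in long bones (LAPTM5 0.58, CORO1A 0.58), osteoblasts (CORO1A -0.44) and B cells in LV (LAPTM5 0.45, ARL11 0.54). Within colonies they were 0.19, 0.54, -0.69, 0.61 and 0.65 in the same order, without a call, which the few pairs could hardly give. Without the animals farthest from the median, CORO1A with osteoblasts fell to -0.23, and ARL11 with granulocytes in long bones passed at 0.65, while within colonies it turned to -0.085.

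Counts of all genes called moved more than the members' values. For queens in long bones they were 1005 without the filter, 391 by DESeq2, 1 without the block, 76 with vehicle libraries only and up to 271 when an animal was left out (DVF007 or her colony mate), against 0. For queens in LV they were 370, 105 and up to 16 (WEF001 or WEF002 left out), against 0. For solitaires they were 8 without the filter, 139 by DESeq2 and 0 without the block or with vehicle libraries only in long bones, against 1, and 9 and 6 in LV, against 0. Between bones they were 251 without the block, 2179 with estradiol libraries and 563 to 1391 when an animal was left out, against 755. For estradiol they were 7 without the filter and 5 by DESeq2 in long bones and 6 by DESeq2 in LV, and for the queen difference between bones 3 by DESeq2 and 1092 without WAF014, against 0 in each. In colony DV, ARL11 rests on 2 to 8 counts a library, which limits the precision of its differences there.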

Other observations

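The balance of the members differed between colonies as well as their levels. Per 100 counts of LAPTM5, CORO1A stood at 11.4 to 15.4 counts in the 6 libraries of colony NO and at 24.7 to 33.7 counts in the 6 libraries of colony G4, 2 ranges that do not overlap. LA spanned 11.9 to 110 counts, from the queen to the helper. These values were noticed after the data were seen and were not tested.

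The helper WAF011 had little ARL11 in long bones, with 0.567 CPM with vehicle and 0.543 CPM with estradiol, and more in LV, with 1.32 and 2.21 CPM. Her colony mate, the queen WAF014, had 20.4 and 23.1 CPM in long bones and 11.3 and 11.1 CPM in LV. The mates of WA thus differed more in ARL11 than those of any other colony in long bones. For LAPTM5 the widest difference of mates was in MA with libraries added (3.58 on the log2 scale) and in WA with vehicle alone (3.29).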
